A study of Drosophila melanogaster with 159 samples.

Results

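The genes described here are those whose RNA stood high in the Drosophila melanogaster prepupa, the stage between the end of larval life and head eversion. A gene was taken when its mean log2 ratio over the arrays of 2 to 10 h after the white prepupa was at least 1 above its mean in larvae of 67 to 84 h, and also at least 1 above its mean on the replicate 2 arrays of 24 to 48 h of metamorphosis. A log2 difference of 1 is a 2-fold difference in the ratio to the reference RNA. Of 3045 genes that had a probe naming a single gene, 39 met both differences, and 3 of them (Cyp6d4, Rpn5 and obst-A) belong to symbols or families set aside by the rule, which leaves 36 genes. All 36 were found in the reference gene table, and 16 of them carry only a CG number. The genes were selected on these values, which are therefore given below as a description without any test.

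The series is a survey of the fly life cycle by 2-colour cDNA arrays, in which each sample was hybridised against a common reference RNA, and it holds 159 arrays in 80 groups. Embryos from egg lays of 1 h made 60 arrays, larvae timed from hatching 24, animals timed from the white prepupa 35, wild-type adults 32 and adults titled tudor 8. All wild-type animals were Canton S kept at 25 °C, RNA was poly(A)+ RNA of whole animals, and the growth text names the same strain for the tudor flies. Nearly every group had 2 arrays, the white prepupa of 0 h had 1, and the labels do not say whether 2 arrays of a group came from separate collections, so the spread between them may be technical.

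The larval groups used by the rule were unsexed animals of 67, 72 and 84 h, with 6 arrays, the prepupal groups were those of 2, 4, 6, 8 and 10 h, with 10 arrays, and the pupal groups were 5 arrays of 24, 30, 36, 42 and 48 h. Wild-type adults were males and females of 0-24 h, 3, 5, 10, 15, 20, 25 and 30 d, sorted by sex after freezing, and tudor adults were males and females of 0-24 h and 5 d. The gene tudor is needed for germ plasm, and eggs of mothers without it give flies that lack germ cells. The titles do not say whether the flies or their mothers carried the mutation. Because whole animals were used, a change in the number of cells of a type and a change in RNA per cell cannot be told apart in any value below.

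At the end of larval life a pulse of the steroid hormone ecdysone makes the larva stop, evert its spiracles and turn its cuticle into the puparium, and a later and smaller pulse ends the prepupa with head eversion. Between the pulses larval midgut and muscle begin to be broken down, imaginal discs evert, and the animal separates from the puparial case. Genes in this interval are known for switching on and off within hours, so a gene can be high on 1 side of the prepupa and low on the other.

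Each array held values for 6722 to 8547 of 12588 probes, and array medians before centring ran from -0.78 to 0.77. By their slide numbers 57 arrays belonged to one set of slides, named slide set A here, and the other 102 to slide set B. Replicate arrays of 2, 4, 6, 8 and 10 h correlated with each other at 0.76 to 0.86 over all probes. The pairs of 12 h and 16 h correlated at only 0.011 and 0.025, and the pairs of 20 to 80 h at 0.31 to 0.48, so the replicates of those times did not resemble each other. The pairs of 12 to 80 h each joined slide set A with slide set B, as did those of 2 to 10 h. The 96 h pair, with both arrays on slide set B, correlated at 0.82. The correlation does not say which replicate departs. The part of the slide set and an exchange of labels at 12 and 16 h were not tested. The rule used only replicate 2 arrays of 24 to 48 h, and later values of 12 to 20 h are those of replicate 2 unless stated. Measured against the replicate 1 arrays of 24 to 48 h instead, the prepupal arrays of slide set A were higher for 34 of the genes and at least 1 higher for 21. The scan comment of larva 72 h replicate 2 names another time, and leaving that array out kept all 36 genes and added 2.

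Of all genes 12.2% were at least 1 higher in the prepupa than in the larva, and 4.08% were at least 1 higher than in the midpupa. The prepupal means of the 36 genes ran from 0.25 to 3.65 with a median of 1.64, against -0.18 in the larva and 0.20 in the midpupa. For 20 genes every prepupal array was above every larval array (11.6% of all genes), for 13 every prepupal array was above every midpupal array (2.65% of all genes), and for 12 both held (0.714% of all genes). The rule used the same arrays, so nothing is read from these shares. The 12 genes were CG32631, Gs1, CG8501, Meltrin, B4, CG30344, Tsf3, CG8389, CG9021, DnaJ-60, CG1236 and Spn42Dd. The genes nearest to the larval threshold on its inner side were apt (1.11) and CG30344 (1.17), and on its outer side St1 (0.99) and slif (0.94). At the midpupal threshold they were Fmo-1 (1.01) and CG8389 (1.05) inside, and CG46491 (0.95) and CG16926 (0.94) outside.

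By the mean of the arrays with a value at each time, 18 genes were highest at 2 h, 9 at 8 h and 9 at 10 h, and none was highest at 4 or 6 h. The peak hour of ZnT63C (2 h) and of CG3823 (8 h) rests on 1 array. The replicates gave the same hour for 19 genes and hours within 2 h of each other for 28. Read alone, the replicates placed different numbers of genes early: 14 genes had their highest value at 2 or 4 h in replicate 1 and 22 in replicate 2. With the times extended to 0 to 20 h and means over both replicates, 14 genes were highest on the single white prepupa array, 9 at 2 h, 8 at 8 h and 5 at 10 h. The median of the genes highest at 2 h was 2.28 and 2.99 on the arrays of 2 h and 0.74 and 1.23 on those of 10 h. For the genes highest at 10 h it was 1.36 and 1.08 at 4 h and 2.79 and 3.01 at 10 h.

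**Figure D1:**
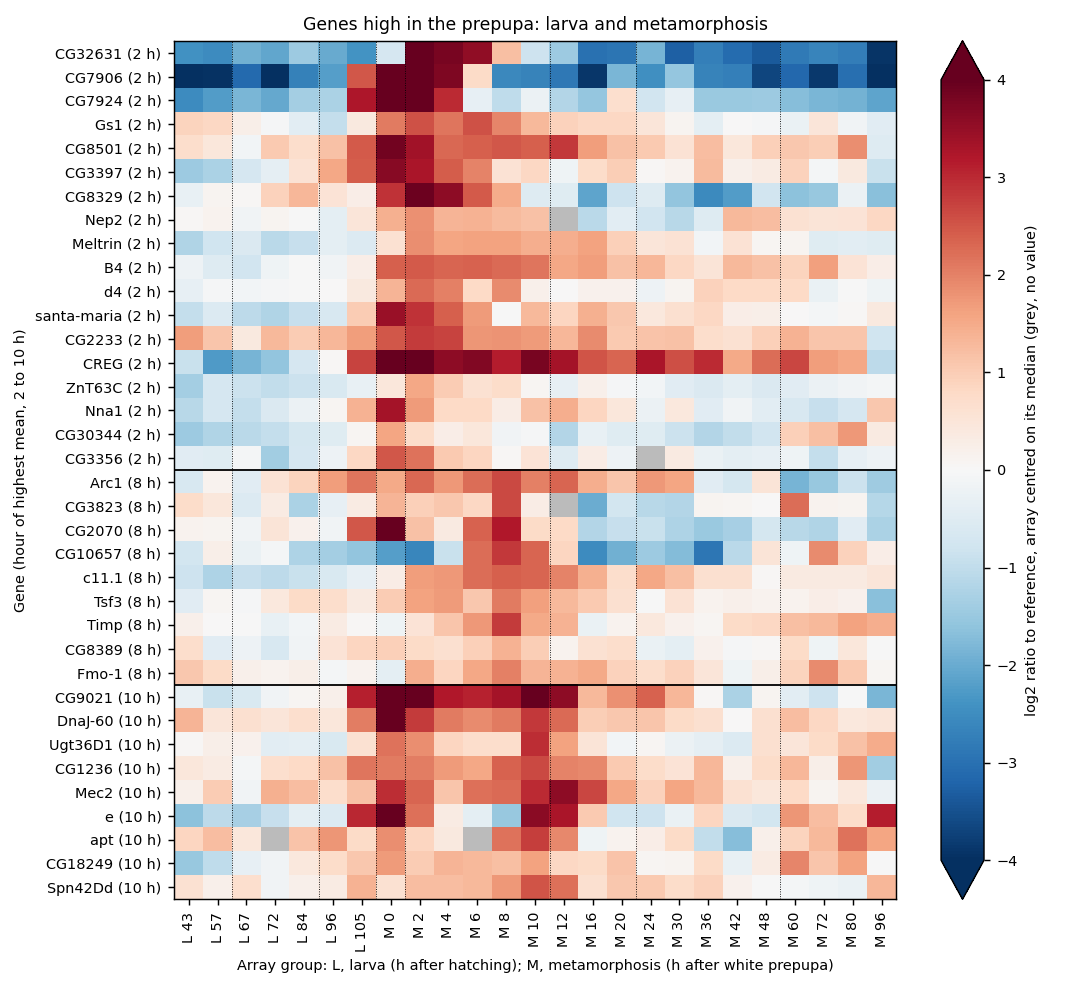
Mean centred log2 ratio of the 36 genes (rows, by hour of highest mean and then by the smaller of the differences used by the rule) in larvae, timed from hatching, and in metamorphosis, timed from the white prepupa (columns). Larval columns and 2 to 10 h are means of 2 arrays, 0 h is 1 array and later columns are the replicate 2 arrays; 18 genes are highest at 2 h, 9 at 8 h and 9 at 10 h, and many of the first and last group are also high at 0 h.

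Among the genes highest at 2 h, CG32631 had the largest smaller difference. Its values were 3.67 and 4.30 at 2 h, 4.20 and 3.38 at 4 h, 3.82 and 3.28 at 6 h, 1.23 and 1.18 at 8 h, and -0.87 and -0.82 at 10 h. The white prepupa array was still at -0.66, the larval arrays lay between -2.99 and -1.16 with a median of -1.77, and the 5 midpupal arrays between -3.37 and -1.88. CG32631 was thus high only from 2 to 8 h, and its 10 prepupal arrays did not overlap either neighbour stage.

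CG7906 and CG7924 lie close together in the reference table, with 1 protein-coding gene between them, and had nearly the same time course. CG7906 stood at 6.23 at 0 h, 4.19 and 5.41 at 2 h, 4.28 and 3.21 at 4 h, 0.89 and 0.61 at 6 h, -2.85 and -2.30 at 8 h and -2.53 and -2.78 at 10 h. CG7924 stood at 6.19 at 0 h, 3.58 and 5.64 at 2 h, 3.22 and 2.73 at 4 h, -0.61 and -0.03 at 6 h, -1.13 and -0.88 at 8 h and -0.08 and -0.42 at 10 h. Both were highest on the 0 h array and low by 8 h, so their prepupal arrays overlapped those of larva and midpupa. The larval arrays ran from -4.95 to -1.44 for CG7906 and from -2.87 to -0.44 for CG7924.

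Gs1, a glutamine synthetase that joins ammonia to glutamate, stayed between 0.91 and 2.96 on all 10 prepupal arrays. Its 6 larval arrays lay between -0.55 and 0.25 with a median of -0.04, and its midpupal arrays between -0.39 and 0.49. CG8501 stood at 2.77 and 3.95 at 2 h and between 1.86 and 2.90 on the other 8 prepupal arrays, and the larval arrays lay between -0.68 and 1.06. CG3397 stood at 2.71 and 3.83 at 2 h, 2.48 and 2.34 at 4 h, 1.84 and 2.13 at 6 h, 0.76 and 0.39 at 8 h and 0.62 and 1.04 at 10 h. Gs1 was lower at 10 h (0.91 and 1.71) than at 2 h (2.14 and 2.96) in both replicates, and so was CG8501 (1.86 and 2.90 against 2.77 and 3.95), but neither reached its larval range. CG3397 came down to values that its larval arrays (-0.72 to 0.98) also reached.

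CREG, a secreted glycoprotein of the lysosomal pathway, had the highest prepupal mean of the 36 genes and the largest difference from the larva, 3.65 ± 0.42 (SD, n = 10) against -1.36 ± 0.78 (SD, n = 6). It passed the midpupal threshold by little, because its 5 midpupal arrays were themselves between 1.52 and 3.27. The early group also held peptidases and transporters. Meltrin, a membrane metalloprotease of the ADAM family, ranged from 1.27 to 2.09 in the prepupa against a highest larval value of -0.41. Nep2, a neprilysin that cleaves small peptides outside the cell, ranged from 0.96 to 2.06 against a highest larval value of 0.38. ZnT63C, a zinc transporter, ranged from -0.39 to 1.54 against a highest larval value of -0.67. ZnT63C, santa-maria, a scavenger receptor for carotenoid uptake (-0.17 to 3.03), and Nna1, a metallocarboxypeptidase (-0.30 to 2.07), each had prepupal values below 0, while Meltrin and Nep2 had none.

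Among the genes highest at 8 h, CG10657 and Timp were low at the start of the prepupa and high at its end. CG10657 stood at -2.20 at 0 h, -2.76 and -2.45 at 2 h, -1.51 and -0.30 at 4 h, 2.35 and 2.14 at 6 h, 2.50 and 3.17 at 8 h and 2.04 and 2.61 at 10 h. Timp, the inhibitor of metalloproteases that cut the extracellular matrix, stood at -0.17 at 0 h, 0.09 and 0.98 at 2 h, 1.10 and 1.10 at 4 h, 2.09 and 1.40 at 6 h, 3.03 and 2.59 at 8 h and 1.17 and 1.89 at 10 h. On the replicate 2 array of 16 h CG10657 was back at -2.51 and Timp at -0.27. Both replicates placed the highest value of these 2 genes at 8 h.

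CG2070 was high at both ends of an early dip. Its values were 5.54 at 0 h, 1.20 and 1.17 at 2 h, 0.24 and 0.49 at 4 h, 2.42 and 2.28 at 6 h, 4.00 and 2.42 at 8 h and 1.12 and 0.42 at 10 h. Arc1, which encodes a capsid protein derived from a retrotransposon Gag and is known from neurons, stayed between 1.57 and 2.81 on all 10 arrays, above its larval range of -0.70 to 0.94. CG3823 had a single array at 8 h, at 2.65, and its other 8 prepupal values ran from -0.63 to 1.57. Its peak hour therefore rests on replicate 1, and replicate 2 alone put it at 2 h. The remaining genes of this group (c11.1, CG8389, Fmo-1, a flavin monooxygenase, and Tsf3, a transferrin) had prepupal means between 0.95 and 2.07.

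Among the genes highest at 10 h, e showed the deepest trough. The gene encodes the enzyme that couples beta-alanine to dopamine for light cuticle. It stood at 6.73 at 0 h, 2.77 and 1.65 at 2 h, 0.42 and 0.21 at 4 h, -0.96 and 0.20 at 6 h, -2.07 and -0.95 at 8 h and 3.14 and 4.08 at 10 h, with 3.26 on the replicate 2 array of 12 h. Ugt36D1, a UDP-glycosyltransferase, had the same form with smaller values, at 2.19 at 0 h, 1.72 and 2.00 at 2 h, 0.93 and 0.76 at 4 h, 0.35 and 1.05 at 6 h, 0.76 and 0.63 at 8 h and 2.87 and 3.01 at 10 h. For both genes each replicate was highest at 10 h within 2 to 10 h, and the arrays of 4 to 8 h were all below those of 2 and 10 h.

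CG9021 was high throughout, with 5.53 at 0 h, 2.77 and 5.75 at 2 h, values from 2.83 to 3.34 at 4 to 8 h and 3.65 and 4.95 at 10 h, against a highest larval value of 0.89. DnaJ-60, a DnaJ co-chaperone, stood at 4.05 at 0 h, 2.01 and 3.60 at 2 h, between 1.79 and 2.13 at 4 to 8 h and at 2.58 and 3.06 at 10 h. CG1236 ranged from 1.36 to 3.09 over the 10 arrays without a clear trough. CG9021 and DnaJ-60 were highest at 2 h in replicate 2 and at 10 h in replicate 1, and CG1236 was highest at 8 h and 10 h in the respective replicates. The others of this group were the serpin Spn42Dd (1.11 to 2.86), the stomatin-like Mec2 (0.79 to 3.20), CG18249 (0.03 to 2.22) and the transcription factor gene apt, which had only 5 prepupal values (0.40 to 2.79).

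**Figure D2:**
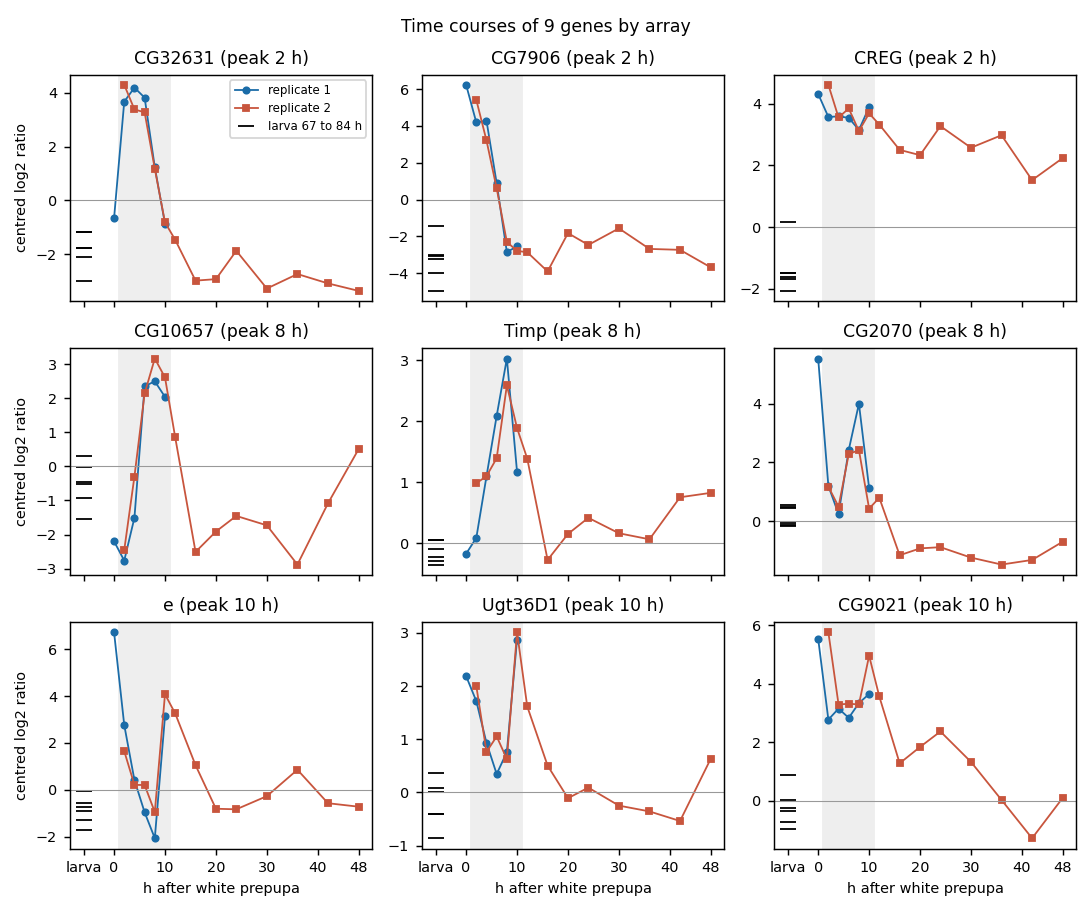
Centred log2 ratio (vertical axis) of 9 genes by array against hours after the white prepupa (horizontal axis), with the 6 larval arrays as dashes at the left and 2 to 10 h shaded. Circles are replicate 1 (0 to 10 h) and squares replicate 2 (2 to 48 h); CG32631 and CG7906 decline before 10 h, CG10657 and Timp stand highest at 8 h, and e and Ugt36D1 have a trough between 0 and 10 h.

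The probes of 5 genes could be compared with another probe of the same gene that had enough values (CG8389, Mec2, Meltrin, Nna1 and d4), and all 5 second probes met the rule. The second probes of CG8389, Mec2, Meltrin and Nna1 had 96 to 98 values over the 159 arrays. All were read on arrays that the rule used, so they are no separate check of the samples. No gene of the ecdysone lists was among the 36. The 4 ecdysone regulators with a named probe were EcR, Hr3, Hr39 and Hr78, and their prepupal means minus larval means had a median of -0.31, with Hr3 at -1.16 in the prepupa and 1.75 in the larva. ImpL2, an ecdysone-induced gene, was 0.96 higher in the prepupa than in the larva and differed by -1.16 from the midpupa, and Oatp74D, an ecdysone importer, was higher by 1.01 than in the larva and by 0.93 than in the midpupa. The other regulators in that list, and the glue and Eig71E genes of the salivary glands, were not analysed here. The label of a prepupa therefore rests on the timing in the titles. Of 9 tanning and pigment genes e alone was a member, and Ddc stood at 0.08 in the prepupa and -0.20 in the larva. Timp alone was a member of the 8 genes of disc eversion and matrix remodelling, in which Sb, a membrane protease needed for eversion, stood at 1.23 against 0.21. Of 11 cell death and autophagy genes none was a member, and their median difference from the larva was 0.49.

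Most markers of larval tissues were lower in the prepupa than in the larva over the same arrays. The 8 muscle structure genes had a median prepupal minus larval difference of -2.45, the 3 gut and digestion genes -3.22 and the 5 hemocyte genes -1.12. The exception among them was the hemocyte gene srp, 1.12 higher in the prepupa, and the gut gene Mal-A5 differed by only -0.08. Of the larval fat body genes FASN1 differed by -4.52 and apolpp by 1.09. None of these 18 genes was a member, and the gut gene Jon65Aiii stood at -4.24 in the prepupa against 2.51 in the larva. Their part in the values of the 36 genes was not tested.

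The genes were next followed outside the windows that chose them, in comparisons on other arrays that were tested with limma over all probes. Their median was -1.78 in embryos of 0 to 2 h, -1.16 at 4 to 6.5 h, -1.30 at 8 to 11 h, -0.21 at 13 to 17 h and -0.08 at 20 to 24 h. All-gene medians stayed between -0.06 and 0.04 in these windows. The genes were thus low in the early embryo as a group. At 0 to 2 h, 8 of 36 were above 0, against 51.1% of all genes.

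**Figure D3:**
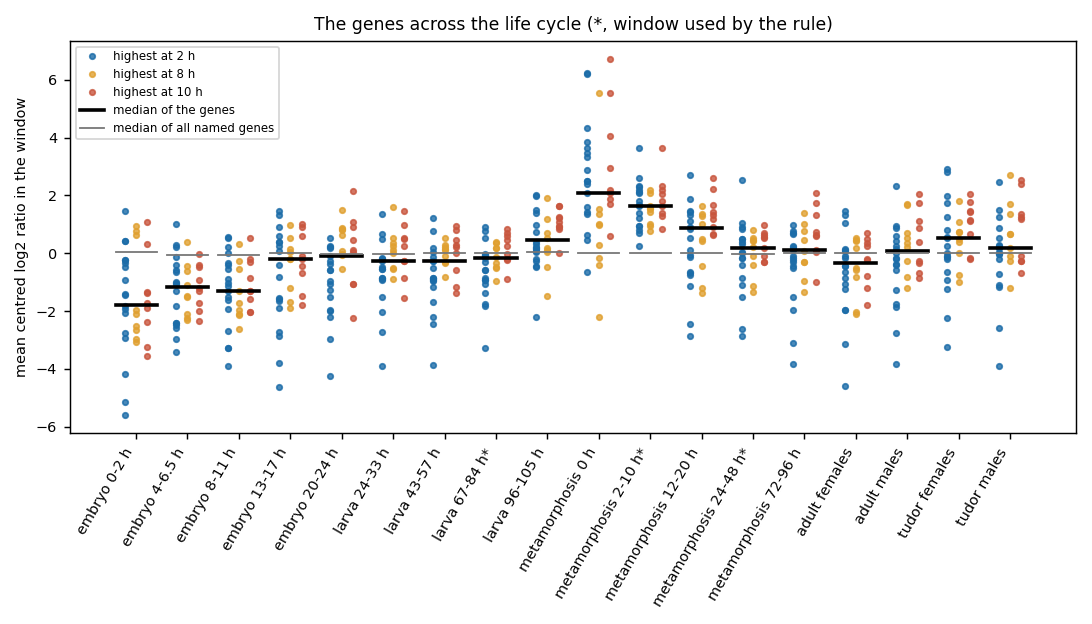
Mean centred log2 ratio of each of the 36 genes (points, coloured by the hour of highest prepupal mean) in windows of the life cycle (horizontal axis), with the median of the genes in black and of all named genes in grey. The median of the genes is -1.78 in embryos of 0 to 2 h, 2.08 at the white prepupa and 0.88 at 12 to 20 h; asterisks mark windows used by the rule.

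From 0 to 2 h to 4 to 6.5 h of embryogenesis, 17 of the 35 genes tested rose and 6 fell, where 34.6% of all probes rose and 22.7% fell (57.3% either way). The median difference was 0.55, against 0.18 over all probes. Spn42Dd rose by 2.16 ± 0.26 (SE, limma adjusted p = 1.38e-08), Meltrin by 1.29 ± 0.16 (3.05e-08), DnaJ-60 by 1.02 ± 0.14 (1.26e-07), e by 1.23 ± 0.21 (4.79e-06) and CG3823 by 1.58 ± 0.37 (0.000482). Gs1 fell most, from 0.09 to 0.79 on the 6 arrays of 0 to 2 h (median 0.35) to -2.83 to -2.10 on the 8 arrays of 4 to 6.5 h (median -2.51), with no overlap. Its difference was -2.92 ± 0.16 (limma adjusted p = 3.12e-17). The other genes that fell were c11.1 (-1.41 ± 0.19), B4 (-1.24 ± 0.17), Tsf3 (-1.18 ± 0.20), CG1236 (-1.09 ± 0.24) and CG3397 (-0.81 ± 0.16).

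The split between risers and fallers depended on the scaling. It was 11 up and 8 down without centring and 5 up and 8 down after quantile normalization. The shares of all probes under these settings are not given here, so the change is not read as one of these genes alone. In this step centring itself moved the median of all probes from -0.01 to 0.18. The array of embryo 4-5 h replicate 1 stood apart, with CG32631 at 1.59 and CG2233 at 0.60 where its partner array had -3.92 and -4.60. Without it the rise of CG32631 was 0.88 in place of 1.59, that of CG2233 1.04 in place of 1.71 and that of santa-maria 0.37 in place of 0.58.

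From 4 to 6.5 h to 8 to 11 h, 6 of 35 genes rose and 3 fell (11.4% and 13.3% of all probes, 24.7% either way), and the median difference was -0.11. Gs1 came back by 1.95 ± 0.16 (limma adjusted p = 4.38e-11), from a median of -2.51 to one of -0.54. Ugt36D1 rose by 1.82 ± 0.25, CG30344 by 1.12 ± 0.22, Nep2 by 0.86 ± 0.25, CG8501 by 0.80 ± 0.23 and Mec2 by 0.52 ± 0.19, the last a call that 8 single arrays could end. CREG fell by 1.29 ± 0.19 (limma adjusted p = 4.04e-06), ZnT63C by 0.80 ± 0.16 and DnaJ-60 by 0.50 ± 0.14. After quantile normalization the split was 5 up and 4 down, for which no share of all probes is given.

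From 8 to 11 h to 13 to 17 h, 13 of 35 genes rose and 2 fell, where 19.9% of all probes rose and 22.8% fell (42.7% either way). The median difference was 0.27, against -0.06 over all probes. Nep2 stood between -2.72 and -1.11 on the 6 earlier arrays (median -1.48) and between 0.92 and 1.94 on the 8 later ones (median 1.54), a rise of 3.12 ± 0.22 (limma adjusted p = 6.88e-13). Timp went from -2.44 to -1.94 (median -2.10) to -0.64 to 0.49 (median -0.24), a rise of 1.96 ± 0.20 (1.14e-09). The arrays of the earlier and later window did not overlap for either gene.

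CG10657 rose by 3.05 ± 0.52, Fmo-1 by 2.82 ± 0.47, CG8501 by 1.87 ± 0.24, CG18249 by 1.71 ± 0.29 and Gs1 by 0.96 ± 0.16. CG10657 went on to 3.68 and 3.21 at 18-19 h, its highest group of the life cycle, above its mean of 2.83 at 8 h of metamorphosis. The 2 genes that fell were Nna1 (-0.65 ± 0.19) and CG1236 (-0.78 ± 0.24). Of 8 muscle structure genes 7 rose as well, and their part in these values was not tested. Of the 8 genes of disc eversion and matrix remodelling, 4 rose in this step, Timp among them, and none fell.

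From 13 to 17 h to 20 to 24 h, 10 of 35 genes rose and 9 fell (27.7% and 23.5% of all probes, 51.2% either way), with a median difference of 0.11. CG2070 lay between -2.34 and -1.13 on the 8 earlier arrays (median -1.52) and between -0.74 and 1.85 on the 8 later ones (median 0.90), a rise of 2.55 ± 0.25 (limma adjusted p = 2.06e-10). For e the same arrays lay between -1.76 and -1.22 (median -1.51) and between -0.50 and 0.86 (median 0.61), a rise of 1.91 ± 0.19 (3.02e-10). In both genes the windows did not overlap. CG9021 rose by 1.90 ± 0.25, Arc1 by 1.37 ± 0.20 and DnaJ-60 by 1.03 ± 0.13. CG18249 fell by 2.36 ± 0.30 (limma adjusted p = 1.19e-07), CG30344 by 1.89 ± 0.21, Nep2 by 1.26 ± 0.21, B4 by 0.89 ± 0.15 and CG1236 by 0.86 ± 0.22. Of 9 tanning and pigment genes, e included, 5 rose and 1 fell, and all 8 muscle structure genes rose; the part of the latter was not tested.

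Among groups with values on 2 arrays, 3 of the 36 genes were highest in the embryo, namely ZnT63C (1.08 at 5-6 h, below its single value of 1.54 at 2 h of metamorphosis), CG10657 (3.44 at 18-19 h) and Fmo-1 (2.15 at 22-23 h). A prepupal group was highest for 25 genes and another time of metamorphosis for 1, CG3823, at 1.68 at 60 h. The other 7 had their highest group in adults, which are described below. The single white prepupa array of 0 h was outside this ranking, and over 0 to 20 h it was highest for 14 genes. The rule used the prepupal arrays, so nothing is read from the count of 25.

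Late larvae were compared with younger ones that the rule did not use. These times lie on either side of the larval window of the rule. A rise toward the prepupa can therefore follow in part from how the genes were chosen, and the count is no separate support. From 43 to 57 h to 96 h and the last larval time, titled Larvae_105h, 14 of 36 genes rose and 2 fell, where 10.4% of all probes rose and 15.2% fell (25.6% either way). The median difference was 0.50, against -0.01 over all probes. CG18249 rose by 2.14 ± 0.21 (limma adjusted p = 6.69e-05), Arc1 by 2.28 ± 0.25 (0.000156), CG3397 by 2.90 ± 0.38 (0.000455), CREG by 2.92 ± 0.44 (0.000912) and CG1236 by 1.56 ± 0.28 (0.0022). The 6 earlier arrays of Arc1 ran from -0.71 to 0.44, and the 4 later ones were 1.61, 1.74, 2.44 and 1.87.

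Some of the later arrays differed among themselves by more than the earlier ones. CG7906, which rose by 3.88 ± 0.90 (limma adjusted p = 0.00859), stood at -3.54 and -0.90 at 96 h and at 2.96 and 2.03 at the last time, against a range of -4.56 to -2.95 at 43 to 57 h. CG7924 gave -2.38 and -0.14 at 96 h and 4.12 and 2.36 at the last time. In e the arrays of 96 h were -0.60 and -0.48 and those of the last time were 4.20 and 1.80. These 3 genes were therefore already high in the last larvae. At 96 h all their values were below 0, but the 2 arrays differed for CG7906 and CG7924. For CG7906 the higher array of 96 h was already above the range of 43 to 57 h.

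The 4 arrays of sexed larvae of the last time, kept out of the test, gave CG7906 between 2.50 and 3.10, CG7924 between 3.24 and 4.07 and e between 2.01 and 4.07. The scan comments of the sexed replicate 1 arrays name 96 h. CG10657 fell by 1.17 ± 0.25 (limma adjusted p = 0.00549) and Gs1 by 1.10 ± 0.34 (0.0335). Without last-time larva replicate 2 the comparison called 10 genes in place of 16, and without last-time larva replicate 1 the rise of e was 1.61 in place of 2.53. Of the 4 ecdysone regulators 1 rose and 2 fell.

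Late pupae of 72 to 96 h were compared with pupae of 12 to 20 h on slide set B, 4 arrays against 3. Pupae of 12 to 20 h lie between the prepupal and midpupal windows of the rule. A fall after them can likewise follow in part from the choice of the genes. Here 7 of 35 genes fell and 2 rose, where 9.05% of all probes fell and 13% rose (22% either way), and the median difference was -0.80 against -0.06 over all probes. Arc1 stood at 2.33, 1.45 and 1.10 at 12, 16 and 20 h and between -1.53 and -0.86 on the 4 late arrays, a fall of 2.96 ± 0.34 (limma adjusted p = 0.000333). Meltrin fell by 1.78 ± 0.25 (0.00102), from 0.97 to 1.60 to -0.49 to -0.38. Mec2 fell by 2.48 ± 0.43 and CG9021 by 3.22 ± 0.56.

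The other genes that fell were santa-maria (-0.97 ± 0.26), CREG (-2.51 ± 0.73) and Gs1 (-1.02 ± 0.30). CG30344 rose by 1.62 ± 0.38 and Nep2 by 1.45 ± 0.32. Without metamorphosis 16 h replicate 2 the count was 5 in place of 9, and Nep2, santa-maria, CREG and Gs1 were not called. Muscle structure genes moved the other way, with 7 of 8 higher late, and their part in these values was not tested. On slide set A alone none of the genes was called at the adjusted threshold by limma and 5 had an unadjusted p under 0.05. With the slide set A arrays added 4 were called. Slide set A has no 96 h array, and its arrays of 12 and 16 h did not resemble replicate 2. The shares of all probes under these settings are not given here, so nothing about these genes is read from the counts.

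**Figure D4:**
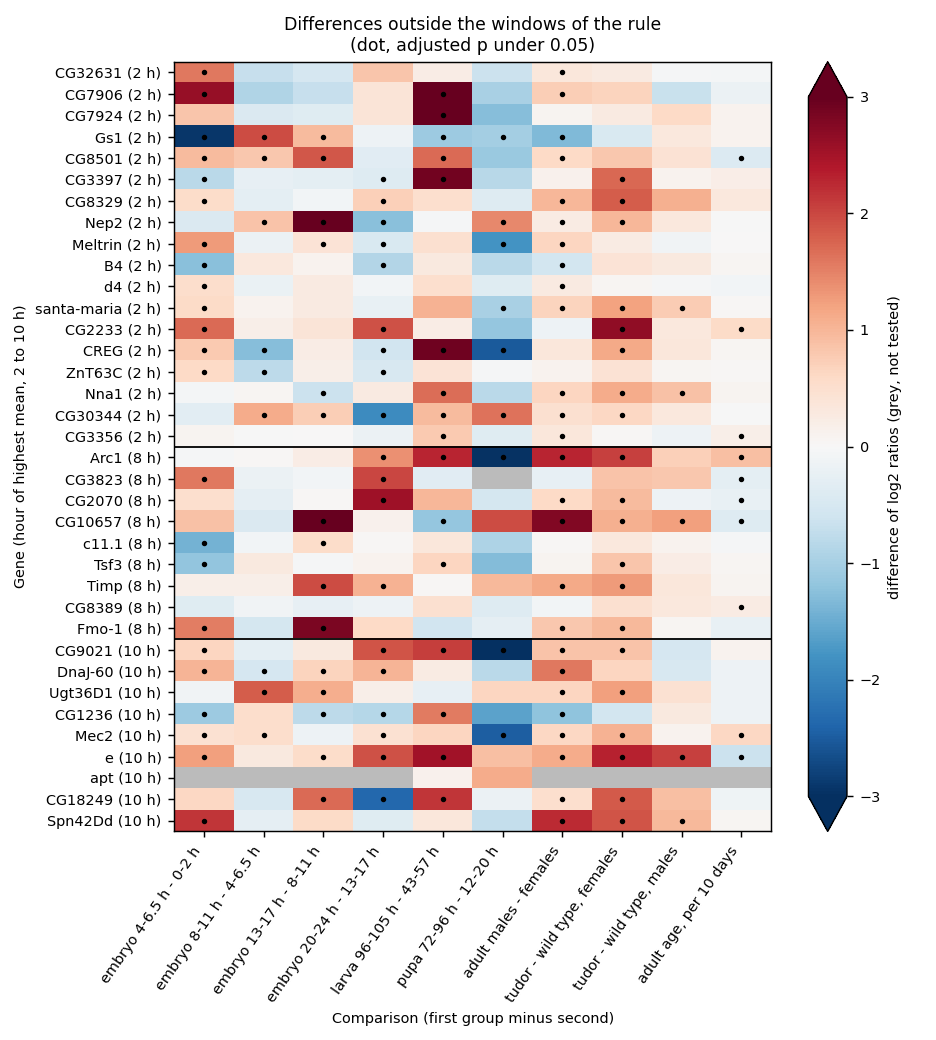
Difference of log2 ratios for the 36 genes (rows) in 10 of the 11 tested comparisons (columns, first group minus second; the tudor effect between sexes is left out), with a dot where the limma adjusted p was under 0.05 and grey where a gene was not tested. The column of late against early larvae holds 14 higher and 2 lower genes, that of late against early pupae 2 higher and 7 lower, and that of tudor against wild-type females 20 higher and none lower.

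In wild-type adults the median of the genes was -0.34 in females and 0.08 in males, with a range from -4.58 (CG7906 in females) to 2.32 (CG8329 in males). Males were higher than females in 23 of 35 genes and lower in 3, where 39.9% of all probes were higher and 34.1% lower (74% either way), and the median difference was 0.50 against 0.07. The split was 16 and 6 without centring, where all probes had a median of -0.16 in place of 0.07. It was 17 and 6 after quantile normalization. How many of all probes were called each way under these settings is not given here. CG10657 was at most -1.13 on the 16 female arrays, with a mean of -2.11 ± 0.34 (SD, n = 16), and lay between -0.36 and 2.23 on 15 male arrays, without overlap, a difference of 2.77 ± 0.15 (limma adjusted p = 6.03e-16). Spn42Dd lay between -1.37 and 0.90 in females and between 1.32 and 2.82 in males, a difference of 2.24 ± 0.17 (1.09e-12).

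Arc1 was higher in males by 2.28 ± 0.20, DnaJ-60 by 1.57 ± 0.14, Timp by 1.14 ± 0.15 and e by 1.11 ± 0.11, and their male and female ranges over all ages overlapped. Females were higher in CG1236 (-1.21 ± 0.12), Gs1 (-1.32 ± 0.14) and B4 (-0.55 ± 0.12). Gs1 ranged from -1.38 to 0.47 in females and from -2.77 to -1.16 in males. All 8 muscle structure genes and 3 of 4 hemocyte genes were also higher in males, and their part in these differences was not tested. Of 9 tanning and pigment genes, e included, 8 were higher and 1 lower.

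All adult arrays of 20, 25 and 30 d were of slide set B, so age was partly confounded with slide set, a covariate of the fit. Over adult age 5 genes had a rising slope and 5 a falling one (6.08% and 8.31% of all probes, 14.4% either way). Arc1 rose by 0.90 ± 0.12 per 10 days (limma adjusted p = 4.79e-06), Mec2 by 0.63 ± 0.10 (3.69e-05) and CG2233 by 0.57 ± 0.08 (1.42e-05). CG8389 (0.26 ± 0.08) and CG3356 (0.18 ± 0.06) rose less. Arc1 in males was -0.73 and -0.62 at 0-24 h and 4.07 and 4.27 at 30 d, the highest group of that gene in the life cycle, and in females it was -1.39 and -1.35 at 0-24 h and 0.37 and 1.11 at 30 d.

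The slope was negative in CG10657 (-0.39 ± 0.09 per 10 days), e (-0.65 ± 0.17), CG3823 (-0.30 ± 0.09), CG2070 (-0.23 ± 0.07) and CG8501 (-0.41 ± 0.13). In e the decline came between the first ages. Females gave 1.33 and 1.32 at 0-24 h, -2.07 and -2.42 at 5 d and -2.69 and -2.57 at 30 d, and males 1.78 and 1.62, -0.69 and -1.12, and -1.08 and -1.16 at the same ages. Without wild-type female 0-24 h replicate 2 the count was 5 in place of 10, and e, CG3823, CG2070, CG8501, CG8389 and CG3356 were not called. Of 8 muscle structure genes 6 declined with age, whose part in these slopes was not tested. Without centring 5 genes rose and 2 fell, and after quantile normalization 5 rose and 3 fell. The shares of all probes under these settings are not given here.

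All 8 tudor arrays were of slide set B, whereas replicate 1 of the wild-type groups of 0-24 h and 5 d was of slide set A. Slide set, a covariate of the fit, was therefore partly confounded with genotype. Tudor females were compared with wild-type females at 0-24 h and 5 d, and 20 of 35 genes were higher and none lower, where 24.3% of all probes were higher and 13.7% lower (38% either way). The median difference was 0.86, against 0.18 over all probes, and without centring the latter was 0.02. CG2233 stood at 3.05 and 2.37 at 0-24 h and 3.02 and 3.27 at 5 d in tudor females, and at -0.13, -0.06, 1.69 and 0.44 in wild-type females, without overlap. The difference was 2.66 ± 0.26 (limma adjusted p = 2.83e-08). Arc1 stood at 0.09, 0.49, 0.92 and 1.40 in tudor females and between -1.79 and -1.35 on the 4 wild-type female arrays, also without overlap, a difference of 2.05 ± 0.28 (2.74e-06).

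CG3397 was higher by 1.73 ± 0.29 and Spn42Dd by 1.88 ± 0.37. The count was 13 without wild-type female 5 d replicate 2, and the calls lost were Spn42Dd, CG18249, CG8329, CG30344, Fmo-1, CREG, CG9021 and CG2070. Without that array the difference of Spn42Dd was 0.94, of CG18249 0.95, of CG8329 1.21, of Fmo-1 0.61 and of CG2070 0.63. That of CREG was 0.54 in place of 1.14 without tudor female 0-24 h replicate 1. Of 8 muscle structure genes 6 were higher as well, as were 3 of 4 hemocyte genes and 7 of 9 tanning and pigment genes, e included. The part of the muscle and hemocyte genes in these differences was not tested.

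In e the excess in tudor flies was seen on the arrays of 0-24 h more than on those of 5 d. Tudor females gave 3.98 and 4.06 at 0-24 h against 1.33 and 1.32 in wild-type females, and -0.36 and -0.55 at 5 d against -2.07 and -2.42. Tudor males gave 5.00 and 5.23 at 0-24 h against 1.78 and 1.62, and -0.50 and -0.15 at 5 d against -0.69 and -1.12. Over both ages the difference was 2.30 ± 0.36 in females and 2.06 ± 0.36 in males (limma adjusted p = 1.65e-05 and 6.85e-05). Whether the difference changed with age was not tested.

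In males 5 of 35 genes were higher in tudor flies and none lower, where 10.5% of all probes were higher and 12.3% lower (22.8% either way). Of 8 muscle structure genes 4 were higher too, and their part was not tested. Beside e the members called were CG10657 (1.23 ± 0.29), Spn42Dd (0.98 ± 0.35), Nna1 (0.88 ± 0.30) and santa-maria (0.76 ± 0.23). The count was 3 without wild-type male 0-24 h replicate 1, 3 without tudor male 0-24 h replicate 1, 2 without tudor male 0-24 h replicate 2 and 3 without tudor male 5 d replicate 2. The male minus female tudor effect was below 0 at the threshold in 6 genes (CG2233, CG3397, Arc1, CG9021, CG2070 and Mec2) and above it in none, where 13.8% of all probes were lower and 7.93% higher (21.8% either way). The comparisons of the sexes, of age and of tudor flies share wild-type arrays.

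**Figure D5:**
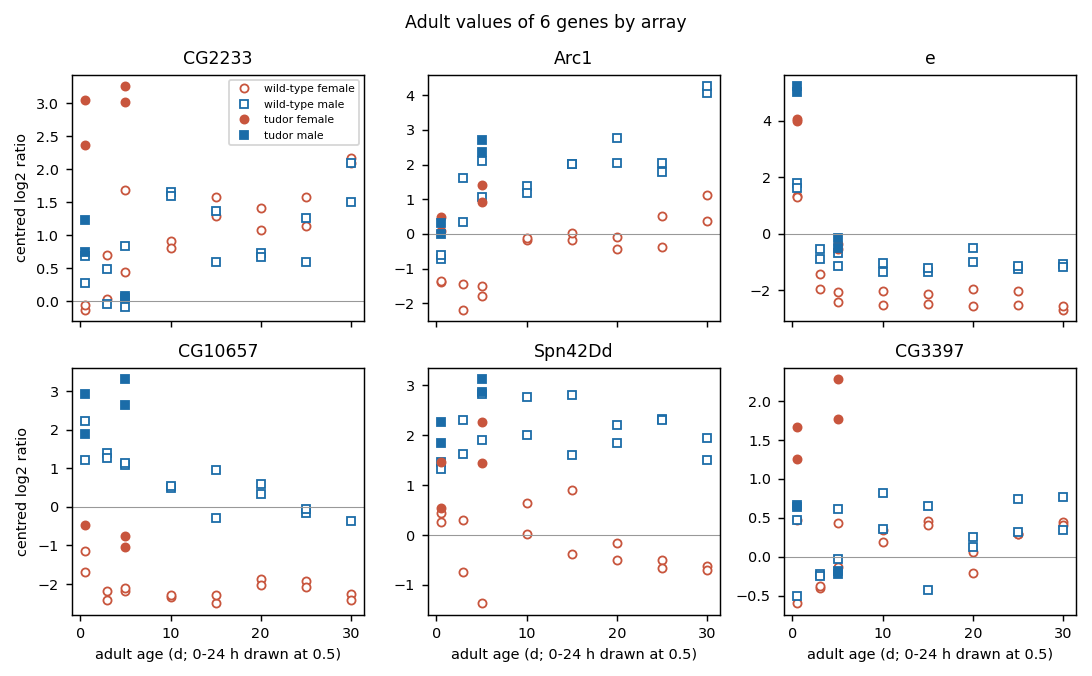
Centred log2 ratio (vertical axis) of 6 genes on each adult array against age in days (horizontal axis), for wild-type (open) and tudor (filled) females (circles) and males (squares). CG10657 does not overlap between wild-type females and males, Arc1 in males reaches 4.07 and 4.27 at 30 d, and e in tudor males stands at 5.00 and 5.23 at 0-24 h.

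Of the 36 genes, 7 had their highest 2-array group in adults. These groups were tudor females for CG8329 (4.36), CG2233 (3.14), CG30344 (1.85) and CG18249 (1.82). They were tudor males of 0-24 h for e (5.11, below its single value of 6.73 at 0 h of metamorphosis). For Spn42Dd the group was tudor males of 5 d (2.99) and for Arc1 wild-type males of 30 d (4.17). Prepupal means of these genes at their best hour were 3.91 for CG8329, 2.80 for CG2233, 0.74 for CG30344, 1.60 for CG18249, 3.61 for e, 2.53 for Spn42Dd and 2.64 for Arc1. CG7906, CG7924 and CG32631 were the opposite case: their means in adult females were -4.58, -1.95 and -3.12 and in adult males -3.84, -1.86 and -2.77, and in embryos of 13 to 17 h they were -4.63, -1.91 and -3.81. Outside metamorphosis, the highest group of CG7906 and of CG7924 was the male larva of the last larval time, at 2.99 and 3.72.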

How the data were processed

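The deposited values were log2 ratios of the red over the green channel, per the labels and file headers; how the authors corrected background and normalized them is not given in the sources used here. The sample was taken as the red channel, which scan comments state for 13 arrays and which is only likely for the others. Each array was centred on its median, and 252 values above 16 were set missing, none of them in the 36 genes. The probe of a gene with most values stood for it, out of 4137 probes naming 1 gene, 159 naming several and 8292 naming none. The members and gene lists were chosen with earlier results of these data known.

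Differences were tested on the log2 scale with limma 3.58.1 in R 4.3.3 (lmFit and eBayes), two-sided, for probes with a value on at least 80% of the arrays of a fit, with Benjamini-Hochberg adjustment over all probes tested and a threshold of 0.05. Slide set was a covariate, except in the pupal comparison. Embryo windows shared 1 fit, tudor effects were fitted for each sex on 40 adult arrays, and age used 0.5 d for flies of 0-24 h. The number of arrays limits the precision, and the p-values measure the spread between arrays. The fits were tested on simulated data.

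Values by array are given for the 6 genes highest at 2 h, and the 4 highest at 8 h and at 10 h, with the largest smaller difference, for genes in a list, and for up to 5 called genes in each direction of a comparison; others are given by range, and CREG was added after its values were seen. Alternatives were no centring, quantile normalization, other filters, each slide set alone, slide and replicate blocks and leaving out each array. The pairing of sexes by age and number, and the test of the tudor effect between sexes, were added after seeing the data. Summaries and figures used Python 3.11.15, pandas 2.3.3, numpy 2.4.6 and matplotlib 3.10.9, and files were read in R with version 1.17.8 of data.table.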

Additional observations from a re-analysis of the deposited data

Results flagged for a closer look

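In 6 genes the tudor effect in males differed from that in females by the interaction term in limma, and the effect in females was the higher one in each. Over the 35 genes tested none differed the other way, where 7.93% of all probes had a higher effect in males and 13.8% a lower one. For CG2233 the male minus female effect was -2.34 ± 0.35 (SE, limma adjusted p = 1.01e-05), with tudor males at 0.75, 1.23, 0.07 and 0.05 and wild-type males at 0.69, 0.27, 0.83 and -0.10. For CG3397 it was -1.61 ± 0.39 (0.00281), with tudor males at 0.64, 0.67, -0.19 and -0.22 and wild-type males at -0.50, 0.47, 0.62 and -0.03. In both genes the male groups overlapped.

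For Arc1 the male minus female effect was -1.35 ± 0.38 (limma adjusted p = 0.00997), with tudor males at 0.30, -0.01, 2.72 and 2.35. For CG9021 it was -1.35 ± 0.41 (0.0168), for CG2070 -1.10 ± 0.34 (0.0216) and for Mec2 -0.94 ± 0.32 (0.0327). Without centring only CG2233, CG3397 and Arc1 of the 6 were called. Leaving out each of the 40 arrays in turn kept at least 4 of the 6 calls. With 2 arrays a group, the gap of 1 array from the rest of its group could not be judged.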

How the results depend on the processing

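Counts of called genes stayed within 1.5 times the reported count in the alternatives run, except in those given here. Shares of all probes are not set beside these counts, so they do not tell a change in these genes from one in all probes. With only probes valued on all arrays of a fit, which tests fewer genes, the counts were 10, 4, 7 and 10 for the 4 embryo steps, 13 for the sexes, 12 and 2 for tudor females and males and 4 for age. Slide set A alone, which holds fewer arrays, gave 6 and 11 for the last 2 embryo steps, 15 for the sexes and 2 for age. It gave 0 for pupae (5 at an unadjusted p under 0.05), where it lacks the 96 h arrays. For larvae its only later array was that of 96 h replicate 1, so no count is given. Slide set B alone gave 3 for tudor males, quantile normalization 13 for embryos of 4 to 6.5 h, the added slide set A arrays 4 for pupae, and no centring 3 for the tudor effect between sexes. Leaving out 1 array at a time gave 19 to 24, 8 to 11, 13 to 16 and 17 to 20 for the embryo steps, 10 to 16 for larvae, 5 to 10 for pupae, 22 to 27 for the sexes, 13 to 22 and 2 to 6 for tudor females and males, 4 to 7 for the tudor effect between sexes and 5 to 11 for age. The rule itself gave 48 genes without centring (34 shared), 45 after quantile normalization (35 shared) and 32 to 39 with 1 array left out.

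Signs turned under quantile normalization for CG8329 (-0.20) and CG9021 (-0.00034) in embryos of 4 to 6.5 h and for CG32631 (-0.33) and CG7906 (-0.012) between the sexes. On slide set A alone they turned for Mec2 (-0.17) at 8 to 11 h, Meltrin (-0.063) at 13 to 17 h, CG7924 (-0.15) and CG3356 (-0.056) in larvae, santa-maria (1.09), CREG (0.18) and Mec2 (0.14) in pupae and Nep2 (-0.08) between the sexes. Slide set A held no array of the last larval time and no 96 h array of metamorphosis. Its larval and pupal comparisons are therefore between other times than the reported ones. Its pupal arrays of 12 and 16 h are also those that did not resemble replicate 2. The cause of these turns was not tested.

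A replicate block in place of the slide set term gave 22, 8, 15 and 18 for the embryo steps, 13 for larvae, 7 for pupae, 24 for the sexes, 18 and 5 for tudor females and males, 4 for the tudor effect between sexes and 15 for age. Deviations of same-numbered males and females correlated at 0.27 to 0.55 at 6 of the 8 ages, some of which shared a slide, but at 0.0054 at 30 d and -0.38 at 25 d, where the sexes shared slides across numbers, so the numbers were not taken as pairs. Pairing sexes by age and number gave 27. Over all probes the age count was 2355 under the block and 2129 with no slide set term, against 987.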
